A study of Homo sapiens with 6 samples.

Results

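Most kinesins are ATP-driven motor proteins that move along microtubules or take them apart, and the human genome encodes a superfamily of kinesins. This account covers the kinesin genes of HEK293T cells, a human embryonic kidney line, with and without a double knockout of ALKBH5 and FTO. A gene was included when its identifier mapped in GENCODE release 29 to a protein-coding gene whose symbol begins with KIF and continues with a digit or with C. The rule used no measured value and found 43 genes among the 58721 in the table. Of these, 42 encode members of the kinesin superfamily, and KIF1BP encodes a protein that binds kinesin motors. Whether each of the 42 is an active motor was not checked. CENPE and STARD9 encode kinesins under other symbols and are described apart from the 43.

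The double knockout cells were HEK293T cells in which ALKBH5 and FTO had been knocked out with CRISPR/Cas9, and 3 libraries were made from them. The wild type cells were HEK293T cells with no knockout, also with 3 libraries. ALKBH5 and FTO encode demethylases that act on N6-methyladenosine (m6A), a methylated base in RNA. The wild type columns carry the name HEK293G6, which the labels do not explain. The labels state neither the parent line of the double knockout nor the number of knockout clones, so the knockout and a difference between lines cannot be told apart. Both groups had the same lysis, with Triton X-100 and cycloheximide, and the same ribosomal RNA depletion. The RNA is described as cytoplasmic and was not selected for poly(A) tails. The replicates are described as independent, and p-values here measure the spread between these 3 libraries a group.

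Total gene counts lay between 5923328 and 6433469 in double knockout libraries and between 5634648 and 7551825 in wild type libraries. FTO RNA averaged 56.1 ± 4.21 counts per 1000000 counts (CPM) in the double knockout and 105 ± 7.83 CPM in wild type (SD, n = 3 each), and ALKBH5 RNA averaged 186 ± 0.599 and 245 ± 10.3 CPM. Both genes were lower in every double knockout library, and RNA of both remained. Of 14180 genes past the low-count filter, 57.1% were called, meaning a Benjamini-Hochberg adjusted p below 0.05 in edgeR's quasi-likelihood test. 28.6% were called higher in the double knockout and 28.5% lower, and in 60.6% the libraries of the groups did not overlap. Calls are thus common in this comparison, and small differences are called.

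Most kinesins walk on microtubules by ATP hydrolysis in a shared motor domain, mainly toward the plus end. The transport motors carry vesicles, organelles and RNA, over the longest distances in axons, where KIF1A and the KIF5 motors supply the synapse. The mitotic motors separate the spindle poles, align chromosomes and build the midzone at which the cell divides, and many of their genes are transcribed mainly in G2 and M phase of the cell cycle. Promoters of such late cell cycle genes often hold a short element known as the CHR, with a CCAAT box upstream of it.

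In the RefSeq windows used, promoter letters of the mitotic motors that this account turns on differ from those of KIF1A. They are shown here. Each line gives the 100 bases before the transcript start, 5′ to 3′ on the gene's strand, from RefSeq on GRCh38.p14. Capitals mark matches on either strand to the CHR letters (TTTGAA or TTCGAA), to CCAAT, or to an E2F-like motif (TTTGGCGC, TTTCGCGC or TTTCCCGC). KIF15, KIF20A, KIF11, KIF18A and KIF23 are mitotic motors that were lower in the double knockout, KIF22 is a mitotic motor that was not called, and KIF1A is the transport motor that was higher by the most. These RefSeq starts lay up to 393 bases from the outermost GENCODE starts of the genes.
KIF15, chr3:44761694-44761793, plus strand: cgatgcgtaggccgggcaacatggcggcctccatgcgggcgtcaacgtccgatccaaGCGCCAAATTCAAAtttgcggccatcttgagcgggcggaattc
KIF20A, chr5:138179012-138179111, plus strand: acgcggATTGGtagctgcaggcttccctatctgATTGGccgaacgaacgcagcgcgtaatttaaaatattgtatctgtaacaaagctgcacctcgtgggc
KIF11, chr10:92593030-92593129, plus strand: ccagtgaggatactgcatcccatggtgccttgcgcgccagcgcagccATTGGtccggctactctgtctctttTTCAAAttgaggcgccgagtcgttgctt
KIF18A, chr11:28108157-28108256, minus strand: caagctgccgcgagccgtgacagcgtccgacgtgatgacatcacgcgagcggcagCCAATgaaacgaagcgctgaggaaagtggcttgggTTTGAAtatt
KIF23, chr15:69414249-69414348, plus strand: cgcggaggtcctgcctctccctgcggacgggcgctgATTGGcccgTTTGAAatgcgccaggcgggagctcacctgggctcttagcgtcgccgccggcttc
KIF22, chr16:29790651-29790750, plus strand: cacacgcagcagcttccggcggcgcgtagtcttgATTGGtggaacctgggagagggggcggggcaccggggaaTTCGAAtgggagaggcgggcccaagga
KIF1A, chr2:240821404-240821503, minus strand: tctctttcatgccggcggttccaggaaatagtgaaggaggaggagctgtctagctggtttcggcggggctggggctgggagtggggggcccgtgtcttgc

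In the CHR-bearing stretches shown with a CCAAT box, the CCAAT box lies upstream of the CHR, as in KIF11, where they begin 53 and 28 bases before the start. In KIF15 the E2F-like match runs directly into the CHR, with no CCAAT box in the window. The KIF20A window holds a pair of CCAAT boxes and no CHR match, and the KIF1A window holds none of these motifs. The offsets of these genes from the outermost GENCODE starts, 393 bases for KIF20A and -367 for KIF1A, were the largest shown. A negative offset lies outside the GENCODE gene. Bases just before those GENCODE starts are outside these windows, so motifs there would be missed. Over windows from 250 bases before to 50 bases after the start, 35 of the 43 genes had a RefSeq promoter. CHR letters occurred in 11 of 14 mitotic motor promoters and in 1 of 12 transport motor promoters, that of KIF5B, against 16.4% of all 35116 promoters of that length and 10.7% of those of tested protein-coding genes. A CCAAT box occurred in 11 of 14 mitotic and 3 of 12 transport motor promoters, against 34.6% of all promoters. Both motifs occurred together in 10 of 14 mitotic motor promoters, against 6.38% of all. The E2F-like motif occurred in 1 of 14, that of KIF15, against 2.74% of all. Of the 9 mitotic motors called lower, 8 held the CHR letters and 7 held both motifs. KIFC1 and KIF22, which were not called, also held both, so the letters do not separate the called from the uncalled members. A match describes letters and not a bound site.

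In the double knockout, 10 kinesin genes were higher and 16 were lower, and 13 of the 39 tested were not called. The 26 called genes are 66.7% of the tested members, against the 57.1% called among all genes, so the share of calls by itself sets the kinesins little apart. The median log2 fold change, double knockout over wild type throughout, was -0.10 over the 39 tested kinesins and 0.01 over all tested genes. Libraries of the groups did not overlap for 28 of the 39, against 60.6% of all tested genes. KIF1A was the member by symbol with a rise of at least 2-fold, and no tested member fell by that much. Over all tested genes, 28.6% were called higher and 28.5% lower. Beside these shares, transport motors had 7 genes higher and 5 lower of 17. Mitotic motors had 0 higher and 9 lower of 12 tested. Cilium and centriole kinesins had 1 lower of 5 tested, and the other kinesins had 2 higher and 1 lower of 4 tested.

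4 members had too few counts to be tested. KIF2B, a testis-rich relative of the microtubule depolymerases, had 0 counts in both groups, at a limit for 0 of 3 counts per library, which was 0.397 to 0.532 CPM. KIF4B, an intronless near-copy of KIF4A, had 5 counts over the double knockout libraries and 3 over wild type. KIF19, a ciliary kinesin in mice, had 3 and 2 counts, and KIF25 had 11 and 6 counts, over double knockout and wild type libraries. No direction is read from these counts.

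**Figure D1:**
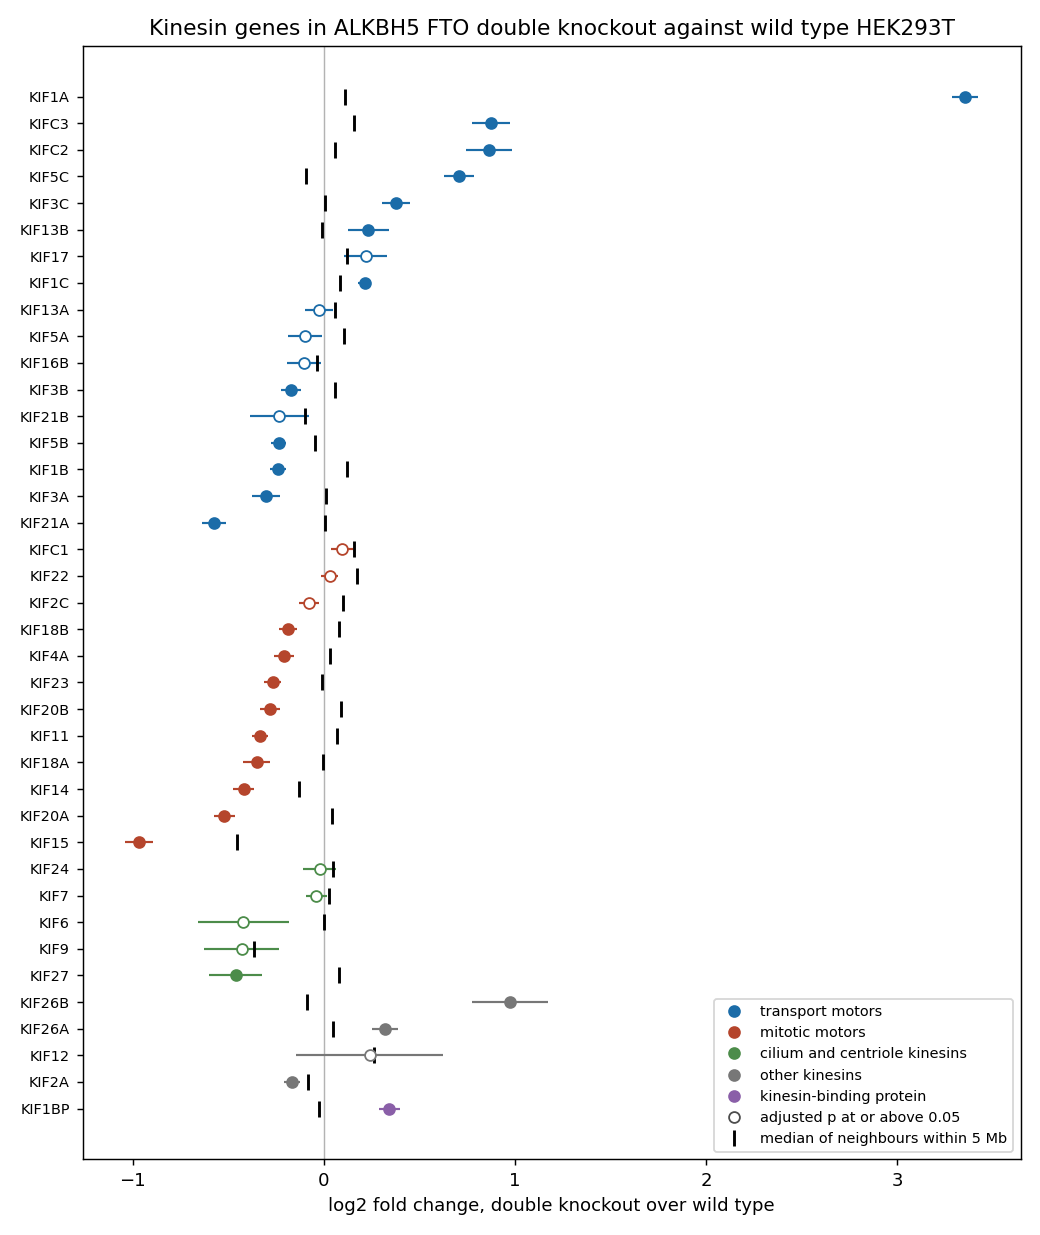
Log2 fold change, double knockout over wild type, of the 39 tested kinesin genes by role (horizontal axis, with bars of 1 SE), filled where the edgeR adjusted p was below 0.05 and open otherwise, with a black tick at the median of tested genes starting within 5 Mb. KIF1A stands alone at 3.35. All 12 tested mitotic motors and all 5 tested cilium and centriole kinesins lie to the left of their neighbours' tick. For KIF24, KIF7, KIF9 and KIFC1 the distance is about 1 SE or less.

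Among the transport motors, KIF1A changed most. KIF1A (ENSG00000130294.16), a kinesin-3 motor that carries synaptic vesicle precursors and dense-core vesicles along axons, lies on the minus strand of chromosome 2 from 240713761 to 240821036 (hg38). It had 158, 160 and 163 CPM in double knockout libraries, against 14.6, 14.7 and 18.3 CPM in wild type libraries. Every double knockout library was far above every wild type library, with 3001 counts in all against 315. The log2 fold change was 3.35 (SE 0.07, edgeR adjusted p = 1.52e-206), a 10.2-fold higher level. By size of rise KIF1A ranked 14 of the 14180 tested genes. The 44 other tested genes starting within 5 Mb had a median log2 fold change of 0.11, so the rise was 3.24 above its neighbourhood.

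Other transport motors rose by less. KIFC3 (ENSG00000140859.15, chromosome 16, 57758217 to 57863053), a kinesin-14 that moves toward the minus end and has been described at cell junctions, had 32.6, 32.6 and 31.4 CPM in double knockout libraries and 17.7, 18.1 and 16.7 CPM in wild type libraries. The groups were well apart, and the log2 fold change was 0.87 (SE 0.10, edgeR adjusted p = 5.07e-17). KIF5C (ENSG00000168280.16, chromosome 2, 148875250 to 149026759), a neuron-enriched heavy chain of kinesin-1, had 49.8, 46.3 and 51.8 CPM in double knockout libraries and 30.0, 29.3 and 31.6 CPM in wild type libraries. All 3 double knockout libraries were higher, with a log2 fold change of 0.71 (SE 0.08, edgeR adjusted p = 4.4e-17).

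KIFC2 (ENSG00000167702.12), a neuron-rich kinesin-14 in mice, had 22.1, 20.9 and 19.4 CPM in double knockout libraries and 9.07, 13.2 and 12.2 CPM in wild type libraries. The groups did not overlap, although wild type varied more, and the log2 fold change was 0.86 (SE 0.12, edgeR adjusted p = 2.37e-11). KIF3C, a kinesin-2 subunit, averaged 52.6 ± 1.67 CPM in the double knockout and 40.5 ± 1.48 CPM in wild type (log2 fold change 0.38). KIF1C, a widely expressed kinesin-3, averaged 276 ± 2.56 and 238 ± 7.02 CPM (0.21), and KIF13B, a kinesin-3 of vesicle transport, averaged 22.4 ± 1.39 and 18.9 ± 1.06 CPM (0.23, SD, n = 3 each). KIF13B only just passed, with an edgeR adjusted p of 0.0466, and its call was lost in 8 of the 13 alternatives. The call of KIF1C was lost when libraries were scaled by the spike-in RNAs, at a log2 fold change of 0.11.

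**Figure D2:**
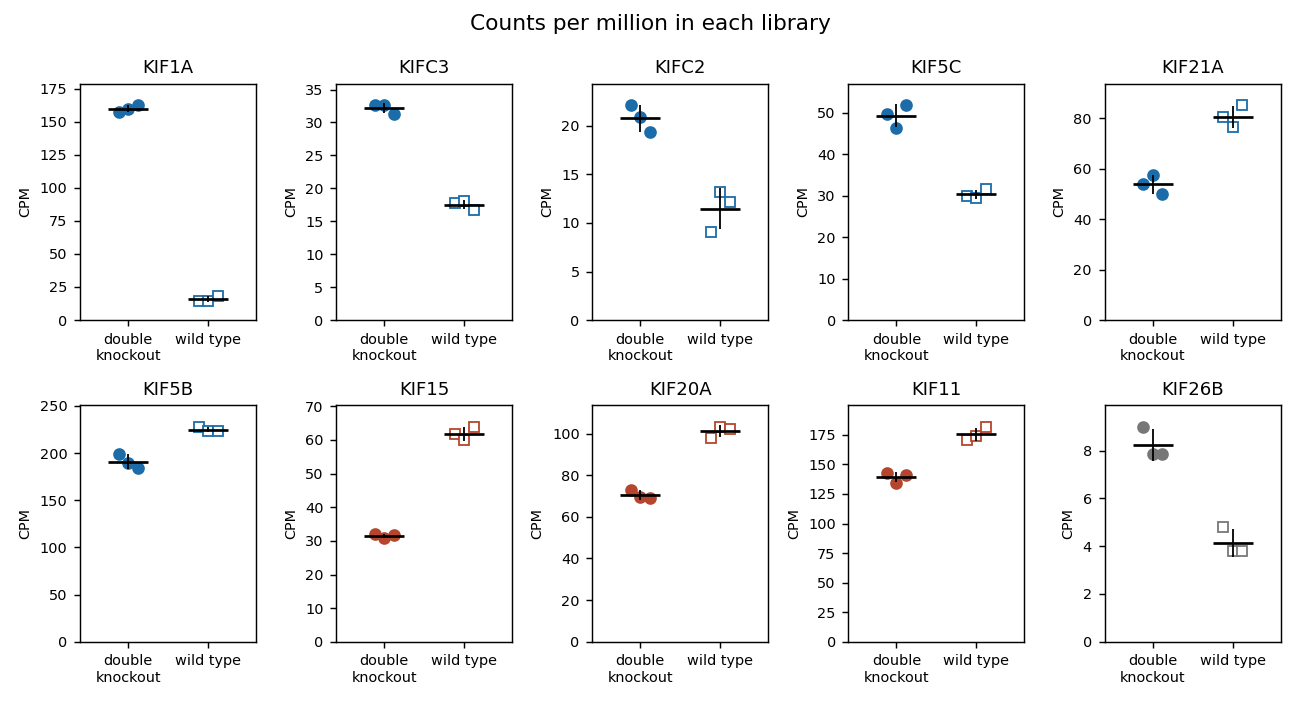
CPM in each library (vertical axis, from 0, on its own scale for each gene) of 10 kinesin genes, with filled circles for the 3 double knockout and open squares for the 3 wild type libraries, and a horizontal line and bar for the mean and SD. The genes shown are the called members with a log2 size of at least 0.5, with KIF5B and KIF11, which were also called. Their groups do not overlap, which holds for 60.6% of all tested genes. KIF1A sits at 158 to 163 CPM in the double knockout against 14.6 to 18.3 CPM in wild type. KIF15 sits at 30.9 to 32.1 against 59.9 to 63.9 CPM.

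Of the 17 transport motors 5 fell, against 28.5% of all tested genes called lower. KIF21A was counted among the 5, although the role given for it here concerns microtubule growth and not cargo. KIF21A (ENSG00000139116.18, chromosome 12, 39293228 to 39443390), a kinesin-4 that limits microtubule growth at the cell cortex, had 54.0, 57.6 and 50.1 CPM in double knockout libraries and 80.3, 76.4 and 85.1 CPM in wild type libraries. Each double knockout library was below each wild type library, and the log2 fold change was -0.57 (SE 0.06, edgeR adjusted p = 1.53e-18). KIF5B (ENSG00000170759.10, chromosome 10, 32009010 to 32056431), the kinesin-1 heavy chain of most cell types, had 199, 189 and 184 CPM in double knockout libraries and 228, 224 and 223 CPM in wild type libraries. The fall was small but clear of the spread, with a log2 fold change of -0.24 (SE 0.04, edgeR adjusted p = 6.17e-09).

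KIF1B, a kinesin-3 that carries mitochondria and synaptic vesicle precursors, averaged 162 ± 7.34 CPM in the double knockout and 191 ± 4.30 CPM in wild type. KIF3A and KIF3B, the pair that drives transport into cilia, averaged 43.0 ± 1.86 and 83.0 ± 2.51 CPM in the double knockout, against 52.8 ± 2.7 and 93.6 ± 2.58 CPM in wild type. Their log2 fold changes were -0.24, -0.30 and -0.17 (edgeR adjusted p = 2.74e-08, 7.95e-05 and 0.00306). 5 transport motors were not called. They were KIF17, a kinesin-2 of dendrites (0.22, adjusted p = 0.0846), KIF13A, a kinesin-3 of endosomes (-0.02, adjusted p = 0.799), KIF5A, the most neuronal kinesin-1 (-0.10, adjusted p = 0.351), KIF16B, a motor of early endosomes (-0.10, adjusted p = 0.317), and KIF21B, a neuronal kinesin-4 (-0.23, adjusted p = 0.189), all with edgeR. Of the motors described here with neurons, axons, dendrites or synapses, KIF1A, KIF5C and KIFC2 rose and KIF1B and KIF5B fell. KIF17, KIF5A and KIF21B were not called.

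Close relatives within the transport motors moved in opposite directions, which changed the make-up of 3 subfamilies. Levels of different genes are set side by side here as CPM per kilobase of annotated exon. In the KIF1 subfamily, KIF1A made up 27.0% ± 0.373 of the summed level in the double knockout and 3.79% ± 0.516 in wild type (SD, n = 3 each). The sum itself was 61.3 ± 0.124 and 43.4 ± 1.12 CPM per kilobase. KIF1B made up 16.1% ± 0.759 and 26.9% ± 0.322, and KIF1C 56.8% ± 0.415 and 69.3% ± 0.330, in the double knockout and in wild type. KIF1C thus lost share although its own level was higher. The annotated exons of KIF1B add up to 16412 bases, against 10669 in its longest protein-coding transcript. The size of these shares and of the sum therefore depends on the length used, beyond the SDs shown.

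In the KIF5 subfamily, KIF5C made up 16.0% ± 1.08 of the summed level in the double knockout and 9.14% ± 0.505 in wild type, and KIF5B made up 72.9% ± 0.867 and 79.9% ± 0.892. KIF5A stayed at 11.1% ± 0.722 and 10.9% ± 1.38. KIF5B remained the main kinesin-1 heavy chain RNA in both groups. KIF3A pairs with either KIF3B or KIF3C, and of the summed KIF3B and KIF3C level KIF3C made up 40.8% ± 1.30 in the double knockout and 32.0% ± 1.40 in wild type. That sum was 23.0 ± 0.358 and 22.6 ± 0.166 CPM per kilobase, so the level shared by these partners stayed about the same while its make-up moved.

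**Figure D3:**
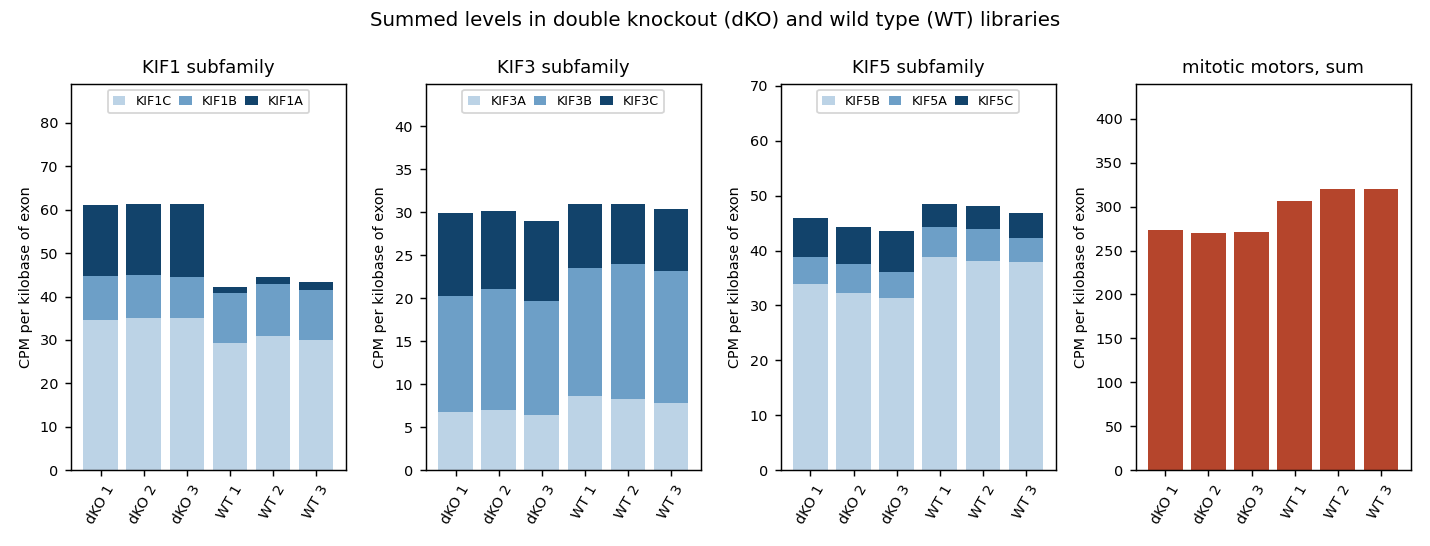
Summed levels (vertical axes, CPM per kilobase of exon, from 0) in each of the 3 double knockout (dKO) and 3 wild type (WT) libraries, with the KIF1, KIF3 and KIF5 subfamilies split by gene and the mitotic motors as 1 sum. The KIF1 sum is 61.3 against 43.4 through the KIF1A segment, and the mitotic motor sum is 272 against 315.

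Over all 17 transport motors the summed CPM was 1278 ± 11.1 in the double knockout and 1150 ± 9.26 in wild type (SD, n = 3 each). Without KIF1A it was 1118 ± 13.5 and 1135 ± 10.8 CPM. The sum was thus higher in the double knockout with KIF1A and not without it.

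Of the 12 mitotic motors tested, 9 fell, none rose and 3 were not called, against 28.5% of all tested genes called lower, with a median log2 fold change of -0.27 beside 0.01 over all tested genes. KIF15 (ENSG00000163808.16, chromosome 3, 44761717 to 44873376), which helps KIF11 hold the spindle poles apart, had 32.1, 30.9 and 31.7 CPM in double knockout libraries and 61.7, 59.9 and 63.9 CPM in wild type libraries. The libraries within each group lay close together, and the log2 fold change was -0.97 (SE 0.07, edgeR adjusted p = 8.25e-33). Genes around KIF15 were lower as a group: the 98 tested neighbours of KIF15 within 5 Mb had a median of -0.45, and KIF15 lay 0.51 below them on the log2 scale. KIF15 also overlaps TMEM42 on the same strand.

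KIF20A (ENSG00000112984.11, chromosome 5, 138178719 to 138187715), which brings the chromosomal passenger complex to the spindle midzone, had 73.1, 69.6 and 69.0 CPM in double knockout libraries and 98.0, 103 and 102 CPM in wild type libraries. All double knockout libraries were lower, with a log2 fold change of -0.52 (SE 0.05, edgeR adjusted p = 4.12e-19). KIF11 (ENSG00000138160.5, chromosome 10, 92593286 to 92655395), also called Eg5, the kinesin-5 that pushes the spindle poles apart, had 142, 134 and 141 CPM in double knockout libraries and 171, 174 and 182 CPM in wild type libraries. The groups did not overlap, and the log2 fold change was -0.33 (SE 0.04, edgeR adjusted p = 1.2e-13).

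The remaining motors that fell act late in mitosis, on chromosomes or on microtubule ends. The cytokinesis motors KIF14, KIF20B and KIF23, of which KIF23 is a subunit of centralspindlin, averaged 68.2 ± 2.39, 83.4 ± 4.19 and 114 ± 1.32 CPM in the double knockout. In wild type they averaged 91.1 ± 2.35, 101 ± 3.96 and 137 ± 0.681 CPM (SD, n = 3 each). Their log2 fold changes were -0.42, -0.28 and -0.27. KIF18A, which damps chromosome movements at metaphase, averaged 42.1 ± 2.40 CPM in the double knockout and 53.7 ± 0.335 CPM in wild type (-0.35). KIF4A, a chromokinesin, averaged 86.4 ± 1.11 and 100 ± 3.87 CPM (-0.21), and KIF18B, which shortens astral microtubules, averaged 103 ± 5.41 and 117 ± 4.09 CPM (-0.19). Adjusted p-values of these 6 in edgeR ran from 1.64e-12 for KIF14 to 3.13e-04 for KIF18B.

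KIFC1, a minus-end motor that clusters centrosomes, averaged 76.1 ± 2.48 CPM in the double knockout and 71.1 ± 3.94 CPM in wild type. KIF22, a chromokinesin, averaged 140 ± 2.83 and 137 ± 8.17 CPM, and KIF2C, a depolymerase at centromeres, averaged 91.4 ± 1.20 and 97.0 ± 7.07 CPM. Their log2 fold changes were 0.09, 0.03 and -0.08 (edgeR adjusted p = 0.156, 0.575 and 0.2), within the spread between libraries. The summed CPM of the mitotic motors was 1046 ± 8.33 in the double knockout and 1244 ± 23.6 in wild type. CENPE, a kinesin of the kinetochore and no member by symbol, averaged 65.2 ± 5.42 CPM in the double knockout and 195 ± 7.11 CPM in wild type (log2 fold change -1.58, SE 0.05, edgeR adjusted p = 2.21e-131), a larger fall than that of any tested member. Its 39 neighbours had a median of -0.72. STARD9, a kinesin of the centrosome, averaged 30.4 ± 1.30 and 35.2 ± 2.83 CPM (-0.21, edgeR adjusted p = 0.0243).

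Each of the 12 tested mitotic motors lay below the median of its neighbours within 5 Mb, and the median of these differences was -0.28. The 5 tested cilium and centriole kinesins also all lay below their neighbours. For KIF24, KIF7, KIF9 and KIFC1 these differences were small, at -0.07, -0.06, -0.07 and -0.06. The SEs of their fold changes were 0.09, 0.06, 0.20 and 0.06. The share of all tested genes below their neighbours was not counted, so the counts given here have no background. The 17 transport motors were split, with 8 above and 9 below their neighbours. Over all 39 tested kinesins, 28 lay below and 11 above. Neighbourhood medians of the tested kinesins ran from -0.45 at KIF15 to 0.26 at KIF12, and KIF9, also on chromosome 3, had neighbours at -0.36.

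Of 6 markers of dividing cells, 3 were lower, 1 was higher and 2 were not called. The 4 called are 66.7% of the list, near the 57.1% of all tested genes, and 28.5% of all tested genes were lower. CCNA2 (log2 fold change -0.83), MCM2 (-0.37) and TOP2A (-0.34) fell and PCNA rose (0.13), while MKI67 (-0.15) and CCNB2 (-0.02) did not pass. The neighbours of CCNA2 and MCM2 within 5 Mb had medians of -0.66 and -0.56. The summed CPM of the 6 markers was 1385 to 1464 in double knockout libraries and 1645 to 1660 in wild type libraries. Fewer cells in mitosis and less of these RNAs per cell cannot be told apart in bulk RNA, and the part of cell cycle in the mitotic motor values was not tested.

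Partners of the motors in the spindle and on cargo were counted in the same way. Of 19 tested partners of the mitotic motors, 9 were lower, 5 were higher and 5 were not called, with a median of -0.15, against 28.5% of all tested genes lower and 28.6% higher. ECT2, the exchange factor that centralspindlin recruits, had 92.7 ± 0.927 CPM in the double knockout and 164 ± 0.111 CPM in wild type (log2 fold change -0.82), in a neighbourhood with a median of -0.67. The kinases PLK1 and AURKA also fell (-0.45 each). BORA, which helps activate AURKA toward PLK1, rose (0.84), as did HMMR (0.33) and TACC3 (0.15), both spindle proteins, the neighbours of TACC3 having a median of 0.49. AURKC had 10 and 5 counts over double knockout and wild type libraries and was not tested. The partners RACGAP1, PRC1 and AURKB, which act with KIF23, KIF4A and KIF20A, were not called (-0.06, -0.15 and -0.08), and PRC1 overlaps another gene on its strand.

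Of 20 kinesin light chains and cargo adaptors, 8 were higher, 5 were lower and 7 were not called, with a median of 0.06. The 13 called are 65.0% of the list, near the 57.1% of all tested genes. The kinesin-1 light chain KLC1 fell (log2 fold change -0.76, edgeR adjusted p = 2.74e-21), whereas KLC2 rose (0.38) and KLC4 rose (0.24). TRAK1, the adaptor between kinesin-1 and mitochondria, fell (-0.56), by about as much as the genes around it on chromosome 3, where 64 neighbours had a median of -0.51. PLEKHM2, an adaptor of kinesin-1, rose (0.37), as did the scaffold MAPK8IP2 (0.49). KLC1 overlaps another gene on the same strand, so its count is uncertain. KIF1BP, which is in this list and among the 43 genes and blocks the binding of several kinesins to microtubules, averaged 93.4 ± 2.59 CPM in the double knockout and 73.8 ± 3.61 CPM in wild type (0.34, SE 0.05, edgeR adjusted p = 4.91e-09).

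Dynein, the motor for the opposite direction, and its activator dynactin had 9 genes higher, 5 lower and 16 not called of 30 tested, with a median of 0.03. The share called, 46.7%, was below the 57.1% of all tested genes. ACTR1A (log2 fold change 0.44), DCTN2 (0.35) and DYNLRB1 (0.41) rose, and DYNC1LI1 (-0.39), PAFAH1B1 (-0.23) and HOOK3 (-0.28) fell, DYNC1LI1 among neighbours with a median of -0.44. The heavy chain DYNC1H1 averaged 247 ± 11.1 CPM in the double knockout and 238 ± 4.84 CPM in wild type and was not called.

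Of 16 neuronal markers, 10 were tested, and 7 of these were higher and 0 lower, against 28.6% and 28.5% of all tested genes. The summed CPM of the 16 was 684 to 703 in double knockout libraries and 404 to 427 in wild type libraries. UCHL1 carried most of that difference, and without it the sums were 331 to 353 and 244 to 259 CPM. UCHL1 (log2 fold change 1.12), ENO2 (2.03) and the neurofilament NEFM (0.82), which HEK293T cells are also known to express, had the smallest p-values. ENO2 overlaps another gene on its strand, so its count is uncertain. The neighbours of UCHL1 had a median of 0.43. The neuron-defining genes STMN2, DCX, ELAVL3 and ELAVL4 had 0 to 4 counts summed over each group, and SNAP25 had 20 in the double knockout and 8 in wild type. TUBB3 had 1 count in each group. However, TUBB3, ELAVL3 and ELAVL4 each overlap another gene on their strand, so their low counts are uncertain. RBFOX3 (-0.54, edgeR adjusted p = 0.0501) was not called. Markers of HEK293T were present in both groups, and of 7 tested 6 were higher and 0 lower. Their median log2 fold change was 0.69, beside 0.35 for the 10 tested neuronal markers, so the rise was not particular to neuronal markers. NEFM is in both lists. VIM, KRT18 and CDH2 were among those that rose (0.45, 0.69 and 1.02, the last among neighbours with a median of 0.37). PAX8 had 0 counts.

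Of the 5 tested kinesins with roles in cilia and centrioles, KIF27 fell and the other 4 were not called. Over all tested genes, 28.5% were called lower. KIF27, a relative of KIF7, averaged 10.5 ± 0.903 CPM in the double knockout and 14.3 ± 1.72 CPM in wild type (log2 fold change -0.46, SE 0.14, edgeR adjusted p = 0.00186). KIF7, a regulator of Hedgehog signalling at the cilium tip, averaged 78.7 ± 3.48 and 80.9 ± 2.30 CPM (-0.04), and KIF24, which acts at the mother centriole, averaged 31.2 ± 0.845 and 31.6 ± 2.60 CPM (-0.02). KIF6 (-0.42, SE 0.24) and KIF9 (-0.43, SE 0.20), both of motile cilia, had 3.61 ± 1.48 and 5.11 ± 0.379 CPM in the double knockout and 4.85 ± 0.396 and 7.00 ± 1.01 CPM in wild type. They were not called (edgeR adjusted p = 0.117 and 0.0525).

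KIF26B (ENSG00000162849.15, chromosome 1, 245154985 to 245709431), an atypical kinesin of kidney development in mice, had 8.99, 7.85 and 7.84 CPM in double knockout libraries and 4.81, 3.80 and 3.81 CPM in wild type libraries. The groups did not overlap, at a low level, and the log2 fold change was 0.98 (SE 0.20, edgeR adjusted p = 4.7e-06). Its relative KIF26A rose too, averaging 60.5 ± 2.77 CPM in the double knockout and 48.4 ± 0.704 CPM in wild type (0.32), a call that was lost with spike-in scaling (0.21). KIF2A, a microtubule depolymerase, fell (-0.17, edgeR adjusted p = 2.51e-04), but it overlaps IPO11 on the same strand. KIF2A was counted with the other kinesins, while the depolymerase KIF2C was counted with the mitotic motors. KIF12 was near the detection limit, at 1.71 ± 0.350 and 1.53 ± 0.899 CPM, and was not called (0.24, SE 0.39).

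**Figure D4:**
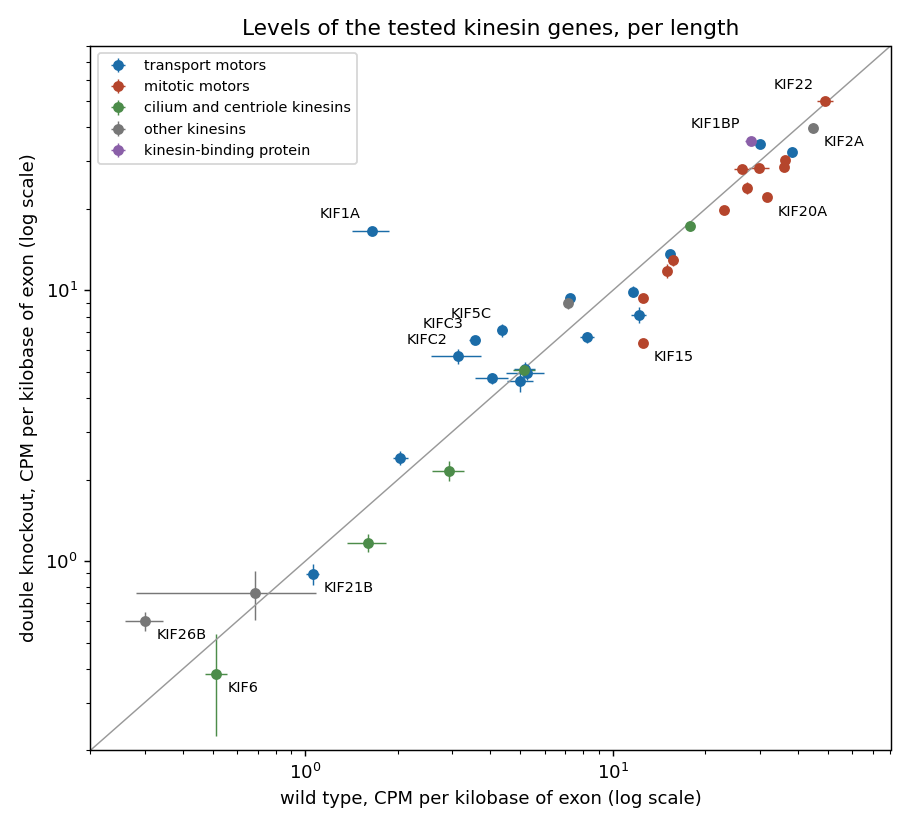
Mean level of the 39 tested kinesin genes in the double knockout (vertical axis) against wild type (horizontal axis), in CPM per kilobase of exon on log scales, with bars of 1 SD over 3 libraries, coloured by role, and a line of equal levels. KIF1A lies furthest from the line, at 16.6 against 1.64, and KIF22 is highest in both groups.

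Per length, KIF22 was highest, at 49.9 ± 1.01 CPM per kilobase of exon in the double knockout and 48.9 ± 2.92 in wild type, followed by KIF2A at 39.8 ± 1.55 and 44.6 ± 1.51. In wild type the SDs of these genes overlapped. KIF1BP at 35.7 ± 0.987 and KIF1C at 34.9 ± 0.324 stood next in the double knockout and did not differ beyond their SD. KIF5B at 38.3 ± 0.439 was next in wild type. The lowest tested member was KIF6 in the double knockout, at 0.382 ± 0.157, and KIF26B in wild type, at 0.302 ± 0.0423. KIF1A was 14 of 39 in the double knockout and 34 of 39 in wild type, and KIF15 was 26 and 18 of 39.

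Because ALKBH5 and FTO act on m6A, the letters GGACT, which are the core of the common m6A sequence GGACU in RNA, were counted in the longest protein-coding transcript of each gene. Transport motors that were higher held a median of 1.31 per kilobase, those that were lower 0.606, and those not called 1.2. Mitotic motors that were lower held 0.413 and those not called 1.2, beside 0.926 over all tested protein-coding genes. The ranges overlapped, at 1.08 to 1.96 in the higher transport motors, 0.17 to 1.12 in the lower ones and 0.269 to 1.42 in the lower mitotic motors. KIF1A, with the largest rise, held the lowest value of the higher transport motors. GC content moved with the GGACT medians, at a median of 56.0% in the higher transport motors, 42.1% in the lower ones and 41.2% in the lower mitotic motors. Over all tested protein-coding genes the GC content was 53.5% in those called higher and 44.1% in those called lower, with GGACT at 0.994 and 0.845 per kilobase. The part of base composition in these counts was not tested, and no methylation was measured.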

How the data were processed

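RNA was sequenced from 3 double knockout and 3 wild type libraries. Per the submitters' processing notes, the authors used cutadapt 2.10, STAR 2.7.6a, featureCounts and hg38. The deposited values are raw read counts per gene, with no normalization. The labels' protocols name a directional kit; the sources used here do not give the strand and multiple-alignment settings of counting, so reads of overlapping genes or near-copies are uncertain. All 58721 identifiers matched GENCODE release 29. Per the labels, each library's 1 µg of RNA received 7 pg of GFP and 1.2 pg of FLuc RNA. A count of 0 allows up to 3 counts, which covers counting error only.

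Counts were tested in R 4.3.3 with edgeR 4.0.16 (filterByExpr with minimum count 10 and total 15, TMM, robust glmQLFit, two-sided glmQLFTest), adjusted by Benjamini and Hochberg over 14180 genes at 0.05, and checked on simulated data. CPM use TMM-scaled library sizes, and levels per kilobase use the union of exons. Alternatives were RLE and spike-in scaling, DESeq2 1.42.0, voom in limma 3.58.1, other filters, a replicate block, leaving out each library and a 2 Mb window. Members and lists were chosen with earlier results of these data known. Every member is named; libraries are listed singly for called members with a log2 size of at least 0.5 and for KIF1A, KIF5B and KIF11; from each partner list the 3 called genes of smallest p in each direction are named, except 1 that is not reported here, and members named beside these were chosen after their values were seen. Replicate numbers did not pair libraries (correlations 0.0106, 0.0166 and 0.0085).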

Additional observations from a re-analysis of the deposited data

How the results depend on the processing

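Of the 26 called kinesins, 23 kept their call in every one of the 13 alternatives that tested them; KIF13B, KIF1C and KIF26A did not. Across the alternatives 7 to 10 kinesins were higher and 16 to 17 lower, transport motors had 5 to 7 higher, and mitotic motors had 9 to 10 lower and 0 higher. Spike-in scaling shifted the median of all tested genes by -0.11 and gave 7 kinesins higher and 6369 genes called; DESeq2 called 6500. With the replicate block, 10 kinesins were higher and 17 lower, KIF9 being gained (log2 fold change -0.44), and no call was lost. Members that were not called changed sign as follows: with spike-in scaling KIFC1 was at -0.0125 and KIF22 at -0.0749, and over the leave-one-out fits KIF22 ran from -0.0263 to 0.0675, KIF24 from -0.0853 to 0.0456, KIF12 from -0.0763 to 0.721 and KIF13A from -0.0779 to 0.0307. The sign changed without wild type replicate 1 in all 4, and for KIF13A also without double knockout replicate 1. The causes were not tested. Leaving out a library ended the call of KIF13B without wild type replicate 2 or 3 (0.21 and 0.20) and without double knockout replicate 1 or 3 (0.21 and 0.20), and gained calls of KIF6, KIF9, KIF2C and KIF17. Depth limits the kinesins below about 10 CPM, such as KIF6, KIF12 and KIF26B, whose SEs were 0.24, 0.39 and 0.20.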
